A study of Mus musculus with 6 samples.

Results

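The suppressors of cytokine signalling (SOCS) are a family of 8 genes in the mouse, Cish and Socs1 to Socs7, and all 8 were found by symbol among the 24346 genes of the transcript tables. Cytokine receptors carry JAK kinases, which phosphorylate STAT transcription factors, and the STATs switch on some SOCS genes within the same cell. The SOCS proteins then bind the receptor or the kinase through an SH2 domain and, through a C-terminal SOCS box, recruit elongins B and C and a cullin ubiquitin ligase, so that the signal is cut short. In epithelia, Socs1 and Socs3 are best known as brakes on interferon and interleukin 6 signalling, and Cish and Socs2 as brakes on growth hormone and prolactin signalling.

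RNA sequencing was done on luminal cells, the secretory epithelial cells of the prostate gland, isolated by fluorescence-activated cell sorting from C57BL/6 mice aged 4 months. The PB libraries (genotype field, over-expression of CSF1) came from mice with a mouse Csf1 transgene driven by the rat probasin promoter, a promoter active in prostate luminal cells, and the WT libraries came from wild-type littermates. Each group had 3 libraries, numbered 3, 5 and 8 in the titles. The sources used here do not give the sort markers, the number of founder lines or whether a library holds 1 animal or a pool. The p-values therefore reflect library-to-library spread alone, which may be technical. The comparison asks how forced Csf1 expression, which supplies the growth factor of the macrophage lineage, changes the transcripts of luminal cells.

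Levels are given in FPKM, fragments scaled by transcript length and by sequencing depth, added up over a gene's transcripts. As a check of the labels, Csf1 ran from 1.54 to 3.98 FPKM in WT and from 1082 to 1678 FPKM in PB. The PB libraries were the deeper ones, with a read depth per FPKM of 4.17 to 5.01 against 2.72 to 3.50 in WT, and 11102 to 11231 genes lay above 1 FPKM in PB against 9926 to 10089 in WT. Luminal markers were present in both groups, with Krt8, a keratin of simple epithelium, at 1335 ± 347 FPKM in WT and 1724 ± 528 FPKM in PB (SD, n = 3). Krt8 missed the threshold in the reported fit and was called higher once the title numbers entered limma as a block (adjusted p = 0.0452). Markers of other cell types were higher in PB. By limma across all genes, 16 of 16 macrophage and monocyte markers, 9 of 9 tested fibroblast and smooth muscle markers, 8 of 8 tested basal markers, 4 of 4 tested endothelial markers and 4 of 5 tested lymphocyte markers rose, where 24.9% of all tested genes did. Markers near 0 in WT were tested only where they were high in PB, so these counts lean to rises. Of 9 listed endothelial and 15 listed lymphocyte markers, 4 and 5 were tested. With quantile normalization 15 macrophage, 9 fibroblast and smooth muscle, 6 basal, 3 endothelial and 1 of the tested lymphocyte markers passed. The summed macrophage list ran from 29.9 to 150.2 FPKM in WT and from 1016 to 4076 FPKM in PB, with PB replicate 8 the highest. The neutrophil list summed to at most 0.133 FPKM in WT and to 2.02 to 34.1 FPKM in PB. Its only tested gene, S100a8, was at 0 in each WT library and at 0.539, 1.68 and 26.8 FPKM in PB libraries 3, 5 and 8 (limma adjusted p = 0.0872). Of the granule genes, Mpo and Ngp were listed at 0 in all 6 libraries and Elane was above 0 only in WT replicate 3. Camp and Mmp8 reached 0.178 and 0.910 FPKM in PB replicate 8. The part of these cells in any change of a SOCS gene was not tested.

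Of the family, 7 genes were higher in PB and Socs7 was lower, and in none of the 8 did the 3 PB libraries overlap the 3 WT libraries, a pattern that 47.7% of all tested genes also show. Socs3 changed most, 11.8-fold, followed by Socs2 (6.87-fold), Socs1 (4.63-fold), Socs5 (2.87-fold), Socs6 (2.26-fold), Socs4 (1.57-fold) and Cish (1.53-fold). A mean of 1 FPKM or more over the 6 libraries was required for the test. This left 7 members, and 7 of 7 passed an adjusted p of 0.05 upward, where 32.4% of all 10951 tested genes passed, 24.9% upward and 7.47% downward. Socs7 had a mean of 0.990 FPKM over the 6 libraries and fell just under that filter. Its WT mean of 1.42 FPKM was above that of Socs1 (1.33 FPKM), so it was left out through its low PB values. The count of 7 of 7 therefore leans to rises. With no filter, 6 members passed upward and 1, Socs7, passed downward, where 16.2% and 4.16% of 17920 genes did. Changes below are log2 changes of FPKM + 1, PB minus WT, with the standard error and the adjusted p of limma's moderated test. The median change of all tested genes was 0.17, so a member is also placed by the share of tested genes with a smaller signed change. Falling genes count in that share, whatever the size of their fall. In the exact two-sided permutation test each of the 8 genes gave p = 0.1, which is the smallest value that 3 libraries against 3 can give.

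**Figure D1:**
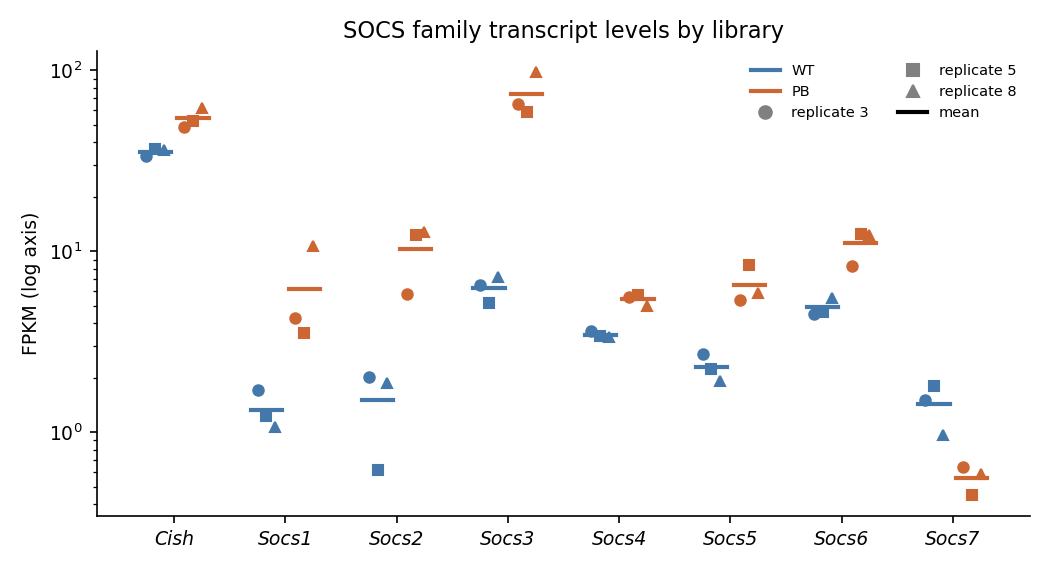
FPKM of each SOCS family gene (x axis) in the 6 libraries on a log axis; blue WT, orange PB, symbols mark the replicate number and horizontal lines the group mean. PB points lie above WT points for 7 genes and below them for Socs7, and PB replicate 8 stands above the other PB libraries for Socs1 and Socs3.

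Socs3, whose product binds gp130, the shared receptor chain of the interleukin 6 family, and blocks JAK kinases, had the largest change of the family. Libraries 3, 5 and 8 of WT held 6.48, 5.19 and 7.21 FPKM, and those of PB held 65.4, 58.7 and 98.0 FPKM. Every PB library was far above every WT library, and PB replicate 8 was the highest. The summed macrophage markers were also highest in PB replicate 8 (4076 FPKM). Between PB replicates 3 and 5, Socs3 was higher in replicate 3 and that sum in replicate 5 (1016 against 1244 FPKM). The part of such cells in the rise of Socs3 was not tested. The log2 change was 3.34 ± 0.21 (limma adjusted p = 2.08e-05), larger than that of 98.2% of tested genes. Mean read depth over its single listed transcript of 2724 bases (mm10, chr11:117966087-117969366) was 18.2 to 20.7 in WT and 273 to 428 in PB. The authors' confidence intervals on single libraries ended at 7.86 FPKM at the highest in WT and began at 57.3 FPKM at the lowest in PB.

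Socs1 is a JAK inhibitor induced by interferon gamma, and its mRNA was among the scarcest of the family in WT. Libraries 3, 5 and 8 of WT held 1.71, 1.22 and 1.06 FPKM, and those of PB held 4.27, 3.52 and 10.7 FPKM. The groups did not overlap, but PB replicate 8 was far above the other two. The log2 change was 1.50 ± 0.35 (limma adjusted p = 0.0110). Without PB replicate 8 the mean in PB was 3.89 FPKM and the change 2.92-fold (log2 change 1.07, limma adjusted p = 0.00741). With quantile normalization the log2 change was 1.05 and did not pass (limma adjusted p = 0.0579). PB replicate 8 also had the highest summed macrophage, lymphocyte and neutrophil markers of the 6 libraries. Within WT the macrophage sum was highest in replicate 8 (150.2 FPKM), and Socs1 was lowest there. For the main Socs1 transcript, NM_009896, the lowest WT library was instead replicate 5 (0.978 against 1.06 FPKM in replicate 8). The authors' confidence intervals of that transcript overlapped among the WT libraries, so the order of Socs1 within WT is not settled. Leukocytes express Socs1 as well, and their part in its rise was not tested. In sorted bulk RNA, more cells of a type and more RNA per cell cannot be told apart.

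Promoter sequences of 4 members were matched by symbol in RefSeq (GRCm38.p6), those of Cish, Socs1, Socs3 and Socs4, each from 250 bases before to 50 bases after the annotated start. They were searched on both strands for TTCNNNGAA, the palindromic core bound by STAT dimers, for its longer-spaced form TTCNNNNGAA, and for GAAANNGAAA, the core of the interferon-stimulated response element. Matches were found in Cish, Socs1 and Socs3, and the 30 bases around each are shown because they are the places where the STAT and interferon motifs of textbook knowledge occur in genes that rose. Capitals mark the matched letters.
Socs3: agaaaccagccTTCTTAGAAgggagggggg
Socs1: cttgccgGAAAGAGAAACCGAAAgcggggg
Cish: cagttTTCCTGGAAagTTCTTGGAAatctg
The Socs3 stretch lies at chr11:117969502-117969531 on the minus strand and the Socs1 stretch, with 2 overlapping matches, at chr16:10785597-10785626 on the minus strand. The Cish stretch, with 2 separate matches, lies at chr9:107296654-107296683 on the plus strand. Its matches begin at offsets 0 and 11 from the annotated start that set the window, so they are not upstream of it. They lie just before the later transcript start of the deposited table (107296689). Socs4 held none of the 3 motifs in its window. Of 32851 promoter windows of this length, 8.30% held TTCNNNGAA, 6.95% held TTCNNNNGAA and 3.44% held GAAANNGAAA. A match describes the letters of the window and does not show that a factor was bound.

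Cish encodes the founding member of the family, a STAT5 target that competes for receptor docking sites, and it had the highest level in WT. Libraries 3, 5 and 8 of WT held 33.8, 36.5 and 36.4 FPKM, and those of PB held 48.9, 52.3 and 62.0 FPKM. The groups were apart, with a spread of 1.53 FPKM (SD) in WT and 6.83 FPKM in PB. The log2 change of 0.59 ± 0.14 was modest (limma adjusted p = 0.0106), and 75.2% of tested genes had a smaller signed change. Read depth over its transcript (chr9:107296689-107301961) was 99.0 to 271, the deepest of the family in WT. In GENCODE M21, exons of Gm17040 and Gm17041 on the opposite strand overlap Cish, and since the labelled kits do not mark strand, their reads would be counted with it. Exons of the other 7 members overlap those of no other annotated gene.

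Socs2, which restrains growth hormone receptor signalling, measured 2.02, 0.614 and 1.87 FPKM in the WT libraries 3, 5 and 8, against 5.77, 12.4 and 12.8 FPKM in those of PB. WT replicate 5 was low within its group and PB replicate 3 was low within its own, yet the groups did not overlap. The log2 change of 2.16 ± 0.34 (limma adjusted p = 0.00183) was larger than that of 94.5% of tested genes. Of 4 listed Socs2 transcripts, NM_001168655 and NM_001168656 were listed at 0 in all 6 libraries. NM_007706, with the most upstream start, went from a mean of 1.25 ± 0.921 to 6.58 ± 2.99 FPKM, and NM_001168657, with the most downstream start, from 0.247 ± 0.219 to 3.74 ± 0.983 FPKM (SD, n = 3, no test per transcript). In WT replicate 5 NM_007706 was at 0.195 FPKM and below NM_001168657 at 0.419 FPKM, while in the other 5 libraries it was the higher one. Of the 2 listed Socs1 transcripts, which share a start, NM_009896 held most of the level, at 1.16 ± 0.250 FPKM in WT and 5.80 ± 4.26 FPKM in PB. NM_001271603 was listed at 0 in both libraries numbered 8 and reached 0.611 FPKM at the highest. Transcripts of a gene share most of their exons, so the split between them is an estimate by Cufflinks.

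**Figure D2:**
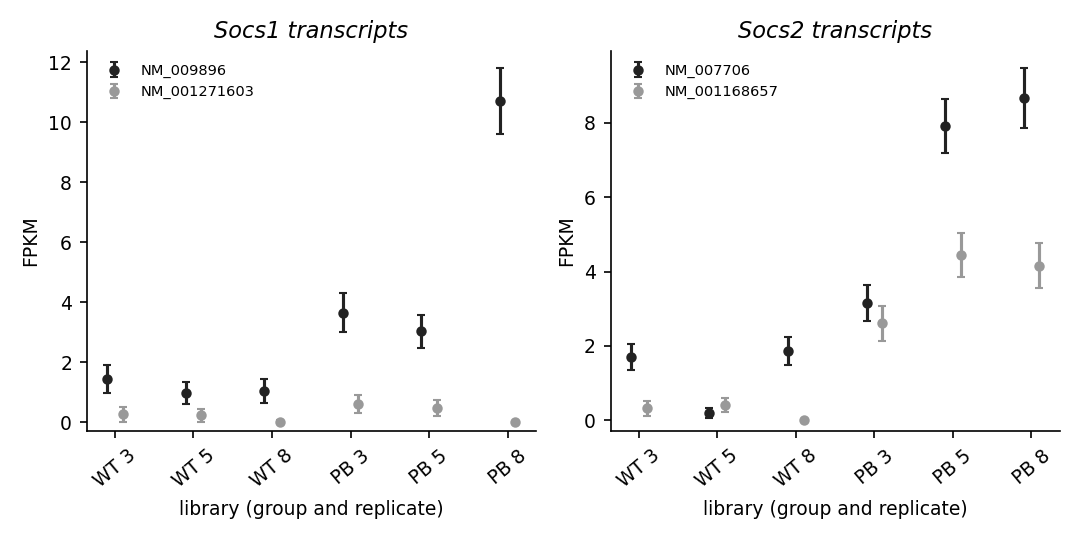
FPKM of the listed Socs1 transcripts and of the Socs2 transcripts above 0 in each library (x axis, group and replicate), with the authors' confidence bounds as bars. The main Socs1 transcript is highest in PB replicate 8 at 10.7 FPKM, and both Socs2 transcripts are higher in each PB library than in any WT library.

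Socs4 to Socs7 are the less studied members with long N-terminal regions, tied more to receptor tyrosine kinases than to cytokine receptors. Socs5, which with Socs4 is linked to turnover of the EGF receptor, measured 2.70, 2.23 and 1.91 FPKM in the WT libraries 3, 5 and 8, against 5.38, 8.39 and 5.87 FPKM in those of PB. All PB libraries were higher and PB replicate 5 was the highest, with a log2 change of 1.19 ± 0.21 (limma adjusted p = 0.00288). Socs6, whose product binds the receptor KIT, measured 4.52, 4.63 and 5.51 FPKM in the WT libraries 3, 5 and 8, against 8.34, 12.5 and 12.3 FPKM in those of PB. Its PB libraries were again all above WT, with replicate 3 the lowest of them, and the log2 change was 1.02 ± 0.19 (limma adjusted p = 0.00424). Libraries 3, 5 and 8 of WT held 3.62, 3.40 and 3.35 FPKM of Socs4, and those of PB held 5.60, 5.70 and 4.98 FPKM. Both groups were tight, and the log2 change of 0.53 ± 0.16 passed the threshold (limma adjusted p = 0.0328). A smaller signed change was seen in 72.6% of tested genes. The Socs4 call did not hold with quantile normalization (log2 change 0.13, limma adjusted p = 0.507) or median-ratio scaling (0.36, adjusted p = 0.113), nor without WT replicate 3, 5 or 8 or PB replicate 3 or 5, where adjusted p ran from 0.0633 to 0.101.

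Socs7, which has been tied to insulin receptor substrates and to the adaptor NCK, was the exception. Libraries 3, 5 and 8 of WT held 1.50, 1.797 and 0.967 FPKM, and those of PB held 0.638, 0.452 and 0.586 FPKM. Each PB library was below each WT library, and the mean was 2.55-fold higher in WT (1.42 ± 0.420 against 0.558 ± 0.0958 FPKM, SD, n = 3). The highest upper bound of the authors' intervals in PB was 0.734 FPKM and the lowest lower bound in WT was 0.821 FPKM. With no filter on low values, its log2 change of -0.62 passed narrowly (limma adjusted p = 0.0455), where 4.16% of 17920 genes passed downward and 16.2% upward. When PB replicate 3, 5 or 8 was left out, Socs7 reached the filter and gave log2 changes of -0.66, -0.57 and -0.64 with adjusted p-values of 0.109, 0.149 and 0.0850. Its transcript (chr11:97362551-97398542) is the longest of the family at 7015 bases and was read at a mean depth of 2.26 to 6.29.

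**Figure D3:**
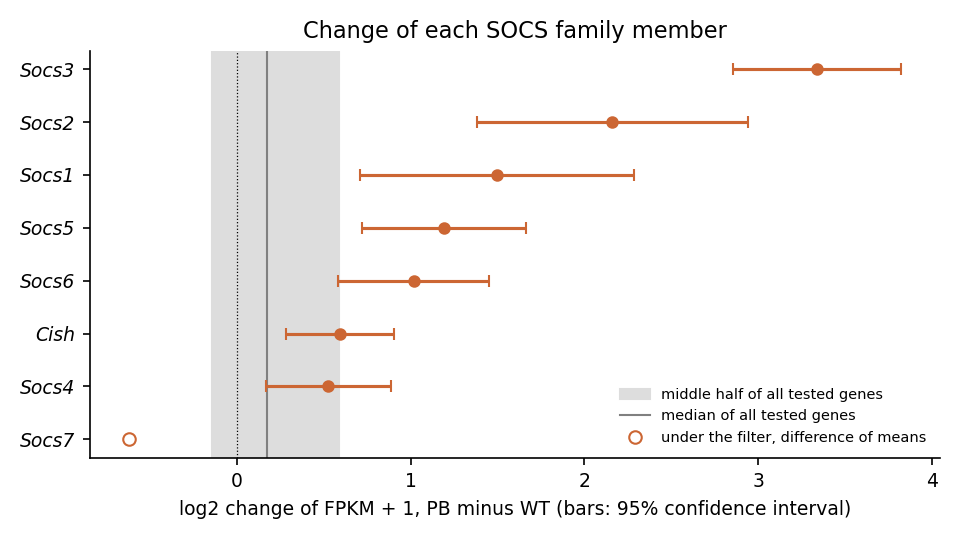
log2 change of FPKM + 1, PB minus WT (x axis), for each family gene, with the 95% confidence interval from limma; the grey band holds the middle 50% of all tested genes and the grey line their median of 0.17. Socs3 lies farthest right at 3.34, Cish and Socs4 lie near the edge of the band, and Socs7 (open circle, no interval, under the filter) lies left of it at -0.62.

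The order of levels within the family differed between the groups. In WT, Cish stood first at 35.6 ± 1.53 FPKM, followed by Socs3 at 6.29 ± 1.02 and Socs6 at 4.89 ± 0.541 FPKM, whose ranges overlapped each other. Socs4 (3.46 ± 0.140 FPKM) lay between Socs6 and Socs5 without overlapping either. The ranges of each neighbouring pair among Socs5 (2.28 ± 0.401), Socs2 (1.50 ± 0.772), Socs7 (1.42 ± 0.420) and Socs1 (1.33 ± 0.340 FPKM) overlapped. In PB, Socs3 came first at 74.0 ± 21.1 FPKM and Cish second at 54.4 ± 6.83 FPKM. Their ranges overlapped, although Socs3 was above Cish in 3 of 3 PB libraries and below it in 3 of 3 WT libraries. Socs6 (11.0 ± 2.35), Socs2 (10.3 ± 3.95), Socs5 (6.55 ± 1.62), Socs1 (6.16 ± 3.95) and Socs4 (5.42 ± 0.390 FPKM) followed, each overlapping the next, and Socs7 at 0.558 FPKM was apart at the bottom.

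Summed over the family, the level was 56.7 ± 1.36 FPKM in WT and 168 ± 34.0 FPKM in PB. Cish made up 62.7% ± 2.86 of that sum in WT and 32.6% ± 2.31 in PB, while Socs3 made up 11.1% ± 1.56 in WT and 43.6% ± 4.83 in PB (SD, n = 3). Neither gene's shares overlapped between the groups. The Socs2 share was 2.63% ± 1.34 in WT and 6.07% ± 2.02 in PB, and the Socs5 share was 4.02% ± 0.761 and 4.00% ± 1.33. Shares of a sum are not independent, so a rise of Socs3 lowers the others.

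**Figure D4:**
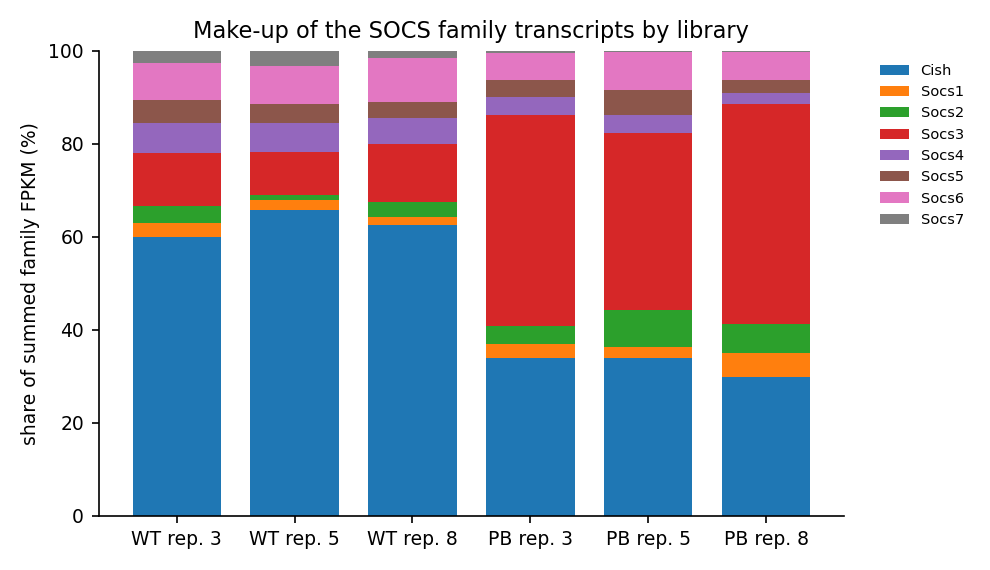
Share of the summed family FPKM (y axis, percent) taken by each SOCS gene in each library. Cish takes 60.0% to 65.7% of each WT bar, and Socs3 takes 38.1% to 47.3% of each PB bar and is the tallest segment there.

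The rest of the pathway was described through 12 gene lists. Genes near 0 in WT were tested only where they were high in PB, so counts within lists lean to rises, and no list was tested as a set. Calls are those of limma across all genes, against the background of 24.9% higher and 7.47% lower. Among the ligands of the gp130 family, 4 of 5 tested genes rose and 0 fell, with a median log2 change of 2.34 (3.94 with a pseudocount of 0.1 and 0.95 with one of 5, with 4 calls in each). Il6 rose from 7.99 ± 2.06 to 126 ± 47.0 FPKM, Lif, the leukaemia inhibitory factor gene, from 0.689 ± 0.231 to 12.3 ± 4.16 FPKM, and the oncostatin M gene Osm from 0.113 ± 0.0983 to 5.40 ± 4.12 FPKM. Il11 also rose, and Ctf1 did not pass (9.84 ± 1.92 against 13.3 ± 3.22 FPKM).

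Of the gp130 family receptors, 2 of 5 tested genes rose. These were Osmr, the oncostatin M receptor gene (1.43 ± 0.516 to 23.1 ± 5.96 FPKM), and Il6st, which encodes gp130 itself (4.91 ± 0.280 to 18.1 ± 1.36 FPKM). The list's median of 0.32 turned to -0.21 with quantile normalization, and Il11ra1 passed downward with that normalization and with median-ratio scaling. Among 4 JAK kinase genes 3 rose and Tyk2 did not pass. Jak2 rose from 4.62 ± 1.01 to 18.8 ± 4.66 FPKM, Jak1 from 19.5 ± 1.66 to 34.6 ± 2.64 FPKM, and Jak3, mainly a kinase of lymphoid and myeloid cells, from 0.0658 ± 0.0301 to 3.08 ± 0.969 FPKM.

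Interferon and interleukin 10 family receptor genes rose in 4 of 7 tested cases, with 0 lower. Both interferon gamma receptor chains were among them, Ifngr1 from 19.1 ± 2.69 to 66.7 ± 24.5 FPKM and Ifngr2 from 22.1 ± 4.55 to 53.4 ± 7.70 FPKM. Ifnar1, a type I interferon receptor chain, and Ifnlr1 lost their calls with quantile normalization (adjusted p = 0.0894 and 0.246). Ifnlr1 also missed the threshold with median-ratio scaling (limma adjusted p = 0.0662), and Ifnar1 passed with it. Of the common gamma chain and type 2 cytokine receptors, 7 of 8 tested genes rose, led by Il2rg (0.245 ± 0.0428 to 10.9 ± 9.52 FPKM), Il13ra1 (4.76 ± 0.894 to 35.8 ± 3.25 FPKM) and Il4ra (0.420 ± 0.156 to 8.39 ± 3.56 FPKM). With quantile normalization 4 of these 8 passed. Il2rg is a leukocyte gene, and it was highest, at 21.8 FPKM, in PB replicate 8, where the macrophage and lymphocyte markers were highest too. Their part in its rise was not tested.

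Neither of the receptors for which Cish and Socs2 are best known rose. The prolactin receptor gene Prlr fell from 94.5 ± 22.5 to 25.3 ± 9.95 FPKM (-1.92 ± 0.31 in log2 units, limma adjusted p = 0.00213), and the growth hormone receptor gene Ghr, at 18.2 ± 1.33 and 16.3 ± 3.96 FPKM, did not pass (adjusted p = 0.538). Prlr also passed downward with quantile normalization and with median-ratio scaling. In the same list of hormone, leptin and haematopoietic receptors, Csf2rb and Csf2rb2, the beta chains of the GM-CSF receptor family of myeloid cells, rose from 0.0636 ± 0.0772 to 4.56 ± 5.24 FPKM and from 0.0385 ± 0.0379 to 2.07 ± 1.38 FPKM, and neither passed with quantile normalization. These were the only 3 of 6 tested genes in that list to pass in the reported fit.

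Genes known as targets of the STATs were counted in 2 lists. Of 13 tested STAT3 targets 12 rose and Myc did not pass (129 ± 18.7 against 107 ± 9.44 FPKM). With median-ratio scaling 11 passed, and Junb missed the threshold (limma adjusted p = 0.0784). The largest changes were those of the serum amyloid gene Saa1 (3.52 ± 2.73 to 283 ± 216 FPKM), the antimicrobial lectin gene Reg3g (2.83 ± 4.28 to 144 ± 57.8 FPKM) and Lrg1 (26.8 ± 3.54 to 539 ± 113 FPKM). Of 7 tested STAT5 targets 6 rose and Pim2 did not pass. Osm, which is also counted among the gp130 family ligands, had the largest change of the STAT5 targets. Igf1 (0.509 ± 0.665 to 4.00 ± 0.135 FPKM) and the cyclin D1 gene Ccnd1 (4.91 ± 0.480 to 16.7 ± 1.89 FPKM) followed. With quantile normalization 4 of the 7 STAT5 targets passed, and with median-ratio scaling 5 did. Bcl6 passed with neither. The milk protein genes Csn2 and Wap were listed at 0 in all 6 libraries.

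**Figure D5:**
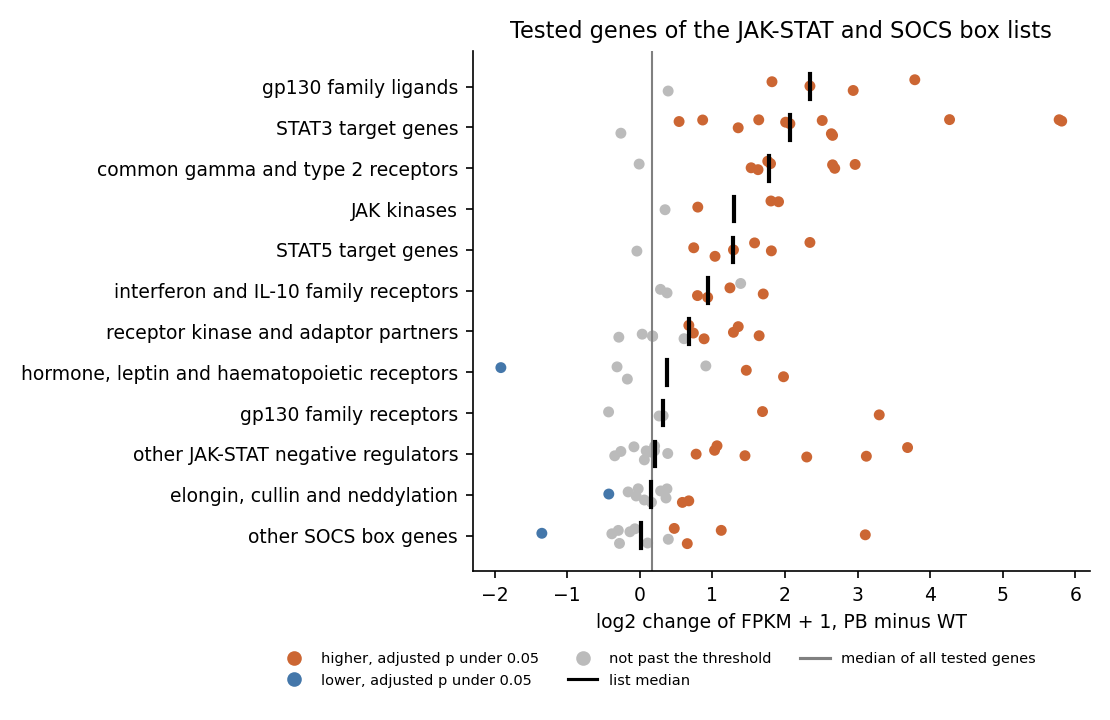
log2 change of FPKM + 1, PB minus WT (x axis), of each tested gene in the 12 lists (y axis), coloured by limma's call, with list medians as black bars and the median of all tested genes as a grey line. Ligands and STAT3 targets lie to the right with medians of 2.34 and 2.07, and the elongin and other SOCS box lists sit near the grey line with medians of 0.16 and 0.02.

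SOCS proteins act through a ligase whose parts form the elongin, cullin and neddylation list. Of its 11 tested genes 2 rose and 1 fell, counts near the background shares of 24.9% and 7.47%. Ube2f, the neddylation enzyme that acts on cullin 5, went from 21.7 ± 4.11 to 35.0 ± 5.31 FPKM and Uba3 from 16.5 ± 3.11 to 25.1 ± 2.95 FPKM, and neither passed with quantile normalization or median-ratio scaling. Rnf7, the RING subunit paired with cullin 5, fell from 84.1 ± 7.11 to 62.1 ± 1.90 FPKM (limma adjusted p = 0.0275). Cul5 itself was at 4.01 ± 0.268 and 4.62 ± 0.700 FPKM, the elongin C gene Tceb1 at 98.9 ± 2.90 and 128 ± 20.6 FPKM, and the elongin B gene Tceb2 at 276 ± 24.9 and 266 ± 26.3 FPKM, WT before PB. None of these 3 passed.

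Other genes whose products carry a SOCS box had 12 tested members of 28, of which 4 rose and 1 fell. Spsb1, an adaptor gene known for limiting inducible nitric oxide synthase, rose from 1.99 ± 0.378 to 24.7 ± 2.29 FPKM (3.11 ± 0.16 in log2 units, limma adjusted p = 7.95e-06). Wsb1 rose from 32.2 ± 8.24 to 70.2 ± 9.03 FPKM. Wsb2 and Spsb3 rose by less and did not pass with quantile normalization or median-ratio scaling. Asb11 fell from 3.94 ± 0.723 to 0.963 ± 0.461 FPKM. The list's median of 0.02 became -0.29 with quantile normalization and -0.17 with median-ratio scaling, where 3 of its genes passed downward.

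Among other negative regulators of JAK-STAT signalling, 7 of 17 tested genes rose and 0 fell. Slfn2 rose from 2.50 ± 0.679 to 49.7 ± 32.1 FPKM and Usp18, the interferon-induced brake on the type I interferon receptor, from 3.16 ± 0.348 to 36.0 ± 10.2 FPKM. The phosphatase genes split. Ptpn1 rose from 12.6 ± 0.220 to 36.6 ± 8.20 FPKM, Ptpn2 from 26.6 ± 2.71 to 56.9 ± 18.5 FPKM and the leukocyte gene Ptprc from 0.149 ± 0.128 to 4.99 ± 2.70 FPKM, while Ptpn6 and Ptpn11 did not pass. The genes of the PIAS proteins, which bind STATs directly, did not pass in the reported fit (Pias1 to Pias4), and Pias3 passed downward with quantile normalization (adjusted p = 0.0216). Ndufa13 passed downward with that normalization and with median-ratio scaling (adjusted p = 0.00633 and 0.00302), and Stub1 with median-ratio scaling (0.0466). The rise of Sh2b3 did not pass with quantile normalization (0.130).

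Partners of the SOCS proteins outside cytokine signalling rose in 6 of 11 tested cases. The EGF receptor gene Egfr rose from 4.60 ± 1.25 to 16.3 ± 2.22 FPKM, Met, the hepatocyte growth factor receptor gene, from 1.78 ± 0.449 to 6.09 ± 0.850 FPKM, and Irs2, an insulin receptor substrate gene, from 4.07 ± 0.461 to 11.7 ± 3.74 FPKM. With quantile normalization 4 of the 11 passed upward, Erbb2 and Pik3r1 lost their calls (adjusted p = 0.128 and 0.122) and the insulin receptor gene Insr passed downward (log2 change -0.73, adjusted p = 0.0292). Erbb2 also missed the threshold with median-ratio scaling (0.0560). Irs1 lay under the filter at 1.28 ± 0.0869 FPKM in WT and 0.358 ± 0.212 FPKM in PB. Kit, whose product Socs6 binds, was at 0.211 FPKM or less in both group means.

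The tested genes with the most similar profiles over the 6 libraries were found by Euclidean distance of log2(FPKM + 1) after each gene's own mean was removed. For Socs3 these were S100a14 (distance 0.33, 2.68 ± 0.501 to 41.3 ± 16.9 FPKM) and Nfkbie (0.34, 1.17 ± 0.316 to 20.6 ± 5.02 FPKM), an inhibitor gene of NF-kB. For Cish they were Dnajc8 (0.06) and Sdcbp (0.10). For Socs1 they were Siglece (0.23) and Hmha1 (0.26), both known from leukocytes, with WT means of 0.0749 and 0.142 FPKM and PB means of 2.11 and 2.80 FPKM. Both passed the filter only through their PB values, and the part of leukocytes in this likeness was not tested. Tmem140 and Antxr2 were closest to Socs2 (0.46 and 0.50), Polg and Birc2 to Socs4 (0.08 and 0.11), Notch1 and 9430020K01Rik to Socs5 (0.12 and 0.19), and Cyfip1 and Pkmyt1 to Socs6 (0.17 and 0.19). Distances are smaller for genes with small changes and describe these 6 libraries alone.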

How the data were processed

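RNA of 6 libraries was made into cDNA with the SMART-Seq v4 kit, per the labels' protocols, which name both Nextera XT and TruSeq DNA kits for library construction. The submitters' processing notes name bcl2fastq 1.8.3, TopHat and Cufflinks, with mm10 as the build. The authors deposited a Cufflinks table for each library, with FPKM and its confidence bounds for 34535 transcripts. The deposited coverage column is a signal in units of mean read depth along each transcript. Fragment totals were not used here.

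FPKM were summed by symbol. Genes with a HIDATA or FAIL status (9) were left out, and a mean of 1 FPKM or more was required. log2(FPKM + 1) was tested with limma 3.58.1 (R 4.3.3, with data.table in version 1.17.8), with an intensity trend, two-sided, Benjamini-Hochberg adjusted over 10951 genes, at 0.05. The pseudocount understates changes of low genes. The fit was tested on simulated data. Members and lists were chosen with earlier results of these data known. All members were named, and of each list up to 3 called genes with the largest change, plus genes needed to account for small counts. Marker examples, Krt8, Ctf1, Il11ra1, Kit, Irs1 and other uncalled genes were named after their values were seen.

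Across genes, deviations from group means correlated at r = 0.26, 0.11 and 0.18 between libraries sharing title number 3, 5 and 8. Between WT and PB libraries with different numbers, r ran from -0.227 to -0.0064. These values are tied to the matched ones, since deviations within a group add up to 0. The numbers may therefore pair the libraries, but what a number marks is not stated in the labels. The reported fit was unpaired, so its standard errors and adjusted p-values leave the numbers out. They entered limma as a block in an alternative fit only.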

Additional observations from a re-analysis of the deposited data

How the results depend on the processing

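Each result was recomputed under 14 alternatives, of which 6 left out 1 library each. No member changed direction under any of them. Socs2, Socs3, Socs5, Socs6 and Cish passed under all 14, with adjusted p of at most 0.0482. With the replicate block 7 members passed upward and 0 downward, and the block ended no call of a member. Among the listed genes it added Krt8, Csf2ra, Grb2 and Il10ra as higher and changed no other call. Quantile normalization gave 1694 higher and 2362 lower genes against 2731 and 818 in the reported fit and moved the median of all genes to -0.16; median-ratio scaling gave 1677 lower genes. Under quantile normalization Socs1 (log2 change 1.05) and Socs4 (0.13) did not pass, and under median-ratio scaling Socs4 (0.36) did not. With no filter on low values Socs4 missed the threshold (0.53, adjusted p = 0.0504) and 1 member, Socs7, passed downward. Leaving out 1 library at a time gave 478 to 850 lower genes, the lowest without WT replicate 5 and 526 without WT replicate 8, and Socs4 changes of 0.50 to 0.58. Socs7 could be fitted in 4 of the alternatives. The cause of these shifts was not tested. Pseudocounts of 0.1 and 5 kept all 7 calls of members while sizes moved, for Socs1 to 1.98 and 0.76, for Socs2 to 2.77 and 1.21, for Socs5 to 1.47 and 0.66 and for Socs4 to 0.63 and 0.30. Mean read depth reached at most 6.29 over Socs7, and in WT at most 4.62 and 5.43 over the main Socs1 and Socs2 transcripts, which limits these 3 genes.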
